A study of Arabidopsis thaliana with 6 samples.

Results

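4 loci that are annotated as non-coding RNA genes or pseudogenes were followed in roots of Arabidopsis thaliana seedlings, wild type or mutant for hb13. They are AT1G23052 and AT2G01422, both typed as non-coding RNA genes, the long non-coding RNA gene AT2G24755, and the pseudogene AT2G24760, which overlaps AT2G24755 on the opposite strand. The 4 loci were chosen from the deposited values themselves, out of 708 entries in the table, the first pair because they were listed at 0 in the mutant and the second because they overlap. Their levels are therefore a description and no test is given on them. Both groups were seedlings of the Col-0 ecotype grown on standard medium for 5 days, with roots dissected about 0.5 cm from the tip. The wild type and the hb13 mutant each had 3 libraries, and the labels name no allele, transgene or treatment for either group. HB13 (AT1G69780), the gene named by the mutant, encodes a homeodomain-leucine zipper transcription factor of class I.

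The authors' deposited table holds 1 expression value per genotype, a log2 fold change of hb13 over wild type and a q-value, and no value per library. The spread between replicates is therefore not known, and the authors' q-value, a p-value adjusted over tests, does not give it. The table lists entries up to a q-value of 0.05, and the number of loci tested and the read depth are not given in the sources used here. A locus that is not listed may have been unchanged, too low to test or not in the annotation used. HB13 was not listed, nor were any of 7 root genes and 4 shoot genes chosen as tissue markers. These genes therefore gave no check of the genotype or of the tissue. In bulk RNA of dissected roots, fewer cells that make a transcript and less of it per cell cannot be told apart.

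Long non-coding RNAs are transcripts with no recognised protein product, and those of plants include natural antisense transcripts, which are made from the strand opposite another gene. Pseudogenes are, in common use, copies of genes that are thought to have lost their function, and some are still transcribed. The pseudogene type of the annotation is taken as given here, and what its loci derive from was not examined. Where such a locus overlaps another gene, the strand of a read can decide which gene it is counted for. The libraries were polyadenylated RNA made with a directional kit, which keeps the strand, per the labels' protocols. Whether the authors' counting used the strand is not given in the sources used here.

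The sequences below show how each locus lies against its neighbours. All were read from the RefSeq genome of assembly TAIR10.1, and coordinates are of that assembly. The submitters' processing notes name TAIR10, and the deposited table itself holds no coordinates. AT1G23052 lies on the minus strand of chromosome 1 from 8168443 to 8169267. The protein-coding gene AT1G23050, annotated as a hydroxyproline-rich glycoprotein family protein, has the same start and end on the plus strand. The first 60 bases of the AT1G23050 coding sequence, chr1:8168631-8168690, are shown on both strands, with the start codon and its complement in capitals, because here strand alone separates the genes.
AT1G23050 strand: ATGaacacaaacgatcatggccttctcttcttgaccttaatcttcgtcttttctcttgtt
AT1G23052 strand: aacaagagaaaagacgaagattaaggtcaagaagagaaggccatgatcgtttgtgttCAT

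AT2G01422 lies on the plus strand of chromosome 2 from 183940 to 184734. It faces away from PIN4 (AT2G01420), which encodes an auxin efflux carrier of the root meristem and is on the minus strand. The gap between the annotated starts of the 2 genes is 175 bases, chr2:183765-183939, shown on the plus strand. It is given whole because it is the stretch in front of both.
AT2G01422 upstream: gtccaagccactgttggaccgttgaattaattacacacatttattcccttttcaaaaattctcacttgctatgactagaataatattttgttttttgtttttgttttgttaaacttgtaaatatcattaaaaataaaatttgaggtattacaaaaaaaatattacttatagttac

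AT2G24755 lies on the minus strand of chromosome 2 from 10541727 to 10549493, and AT2G24760 on the plus strand from 10547026 to 10549520. The annotation splices AT2G24755 inside the region they share and leaves AT2G24760 unspliced. The splice sites of the intron nearest the start of AT2G24755 are shown on its own strand, chr2:10548673-10548732 and chr2:10548525-10548584, with the first and last pair of intron bases in capitals. The first of these stretches is also shown on the AT2G24760 strand, where the capitals mark the complement of the same pair.
AT2G24755 exon-intron: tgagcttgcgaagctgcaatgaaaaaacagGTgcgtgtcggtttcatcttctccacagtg
AT2G24755 intron-exon: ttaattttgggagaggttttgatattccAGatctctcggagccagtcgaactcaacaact
AT2G24760 strand: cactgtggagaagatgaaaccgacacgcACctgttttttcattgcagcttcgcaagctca

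**Figure D1:**
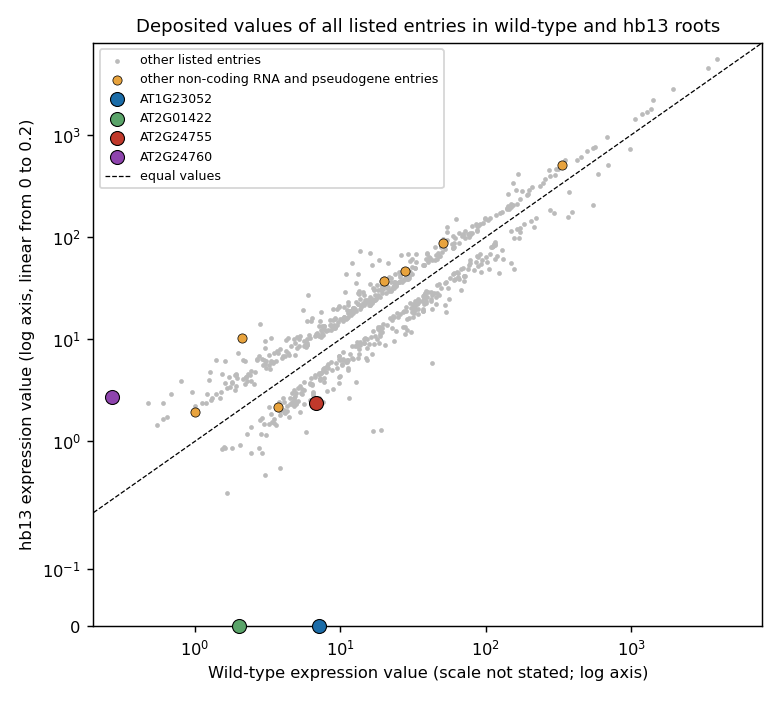
Expression value in hb13 roots (vertical, log axis that is linear from 0 to 0.2) against wild-type roots (horizontal, log axis) for all 708 entries of the authors' deposited table, 1 point per entry, with no error because no value per library is given. AT1G23052 and AT2G01422 lie on the line at 0, AT2G24755 lies below the dashed line of equal values, and AT2G24760 lies above it at the far left with a wild-type value of 0.269.

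AT1G23052 was listed at 7.18 in the wild type and at 0 in hb13 in the authors' deposited table. The wild type was the genotype with signal, and with 1 value each no overlap between libraries can be judged. The q-value in the authors' deposited table was 0.00246, the smallest of 42 distinct values, which 342 entries shared. Its fold change was not a number, so none is given, and no counts were used here that could set an upper limit on a value of 0. Entries at 0 in hb13 made up 0.282% of the 708 listed, namely AT1G23052 and AT2G01422, and no entry was at 0 in the wild type. The 0 was part of the choice of both loci and is not read as a result.

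The 2 loci at 0 were chosen for that value, so the values of other entries beside them are a description. Within a factor of 2 of the AT1G23052 wild-type value there were 230 other entries above 0 in hb13 in the authors' deposited table, with a median hb13 value of 7.88. The lowest of them was MIOX4 (AT4G26260), which encodes an inositol oxygenase, at 3.83 in the wild type and 0.547 in hb13 in the authors' deposited table. Of these 230 entries, 114 were lower in hb13. The listed entries nearest to AT1G23052 in wild-type level went both ways. LBD14 (AT2G31310), a lateral organ boundaries domain gene, had 7.18 and 15.1 in the authors' deposited table, and AT5G05060 had 7.18 and 4.18.

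The AT1G23052 transcript is 825 bases in 1 exon with a GC content of 41.1%. All 825 bases are also exon of AT1G23050, of which 486 are its coding sequence. This arrangement is rare in the annotation. Of 221 nuclear loci of the same type, ncRNA, 47 (21.3%) overlapped a gene on the opposite strand and 1, AT1G23052, had the same start and end as its partner. Among 3480 long non-coding RNA genes 19 did, which is 0.546%. AT1G23050 was not listed, so its own level in the genotypes was not analysed here. The longest reading frame from a start codon on the AT1G23052 strand is 43 codons. No 100-base stretch, the length of the reads, of the 726 in its exon occurred elsewhere in the genome. The closest related stretch elsewhere was 155 aligned bases with 73.5% identity at AT1G70985.

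Of 10 genes flanking AT1G23052, 5 on each side, 1 was listed, beside 1.83% of all annotated nuclear loci. It was AST91 (AT1G23090), a sulfate transporter gene named here after its values were seen, at 2.26 in the wild type and 4.27 in hb13 in the authors' deposited table, a log2 ratio of hb13 over wild type of 0.92 at a q-value of 0.00645. The auxin efflux carrier gene PIN7 (AT1G23080) lies 10921 bases from AT1G23052 on the same strand, with 2 genes between them, and was not listed.

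AT2G01422 was listed at 2.004 in the wild type and at 0 in hb13 in the authors' deposited table, again with the smallest q-value, 0.00246. Its wild-type value ranked 666 of 708, so it was among the lowest of the listed entries before the comparison. Within a factor of 2 of that value, 97 other entries were above 0 in hb13 in the authors' deposited table, with a median hb13 value of 3.87, and 30 of them were lower in the mutant. The lowest was CYP82C4 (AT4G31940), a cytochrome P450 gene of the iron-deficiency response, at 1.67 in the wild type and 0.31 in hb13 in the authors' deposited table. AT5G44410 and GA3OX2 (AT1G80340), a gibberellin synthesis gene, were nearest to AT2G01422 in wild-type level. AT5G44410 went from 2.02 to 0.929 and GA3OX2 from 1.98 to 7.3 in the authors' deposited table.

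AT2G01422 has 2 annotated transcripts with the same ends, an unspliced one of 795 bases and a spliced one of 533 bases. The intron, chr2:184206-184467, is 262 bases long. It begins with GT and ends with AG, which gives the transcript a strand, as the boundaries show with those bases in capitals, chr2:184176-184235 and chr2:184438-184497 on the plus strand.
AT2G01422 exon-intron: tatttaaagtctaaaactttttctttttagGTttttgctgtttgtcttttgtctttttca
AT2G01422 intron-exon: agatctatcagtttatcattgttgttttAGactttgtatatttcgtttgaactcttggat

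Unlike AT1G23052, AT2G01422 overlaps no annotated gene. PIN4 was not listed, and neither was HB17 (AT2G01430), a homeodomain-leucine zipper gene 2873 bases away on the other side. None of the 10 genes that flank AT2G01422 was listed, which is not read as a result because only 1.83% of all annotated nuclear loci were. Its longest reading frame is 35 codons in either transcript. Sequence like AT2G01422 occurs elsewhere, in 10 alignments over all 5 nuclear chromosomes. The closest was on chromosome 3, in 2 adjoining blocks of 461 bases with 89.8% identity and 182 bases with 89.6% identity. This place holds AT3G28900, annotated as a ribosomal protein L34e superfamily gene on the minus strand, and AT3G28899 on the plus strand. Neither was listed. The longest run of identical bases was 68, so none of the 696 stretches of 100 bases was shared, while 19 of 746 stretches of 50 bases were. How many mismatches the authors' alignment allowed is not given in the sources used here, so reads shared between these places could not be examined.

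**Figure D2:**
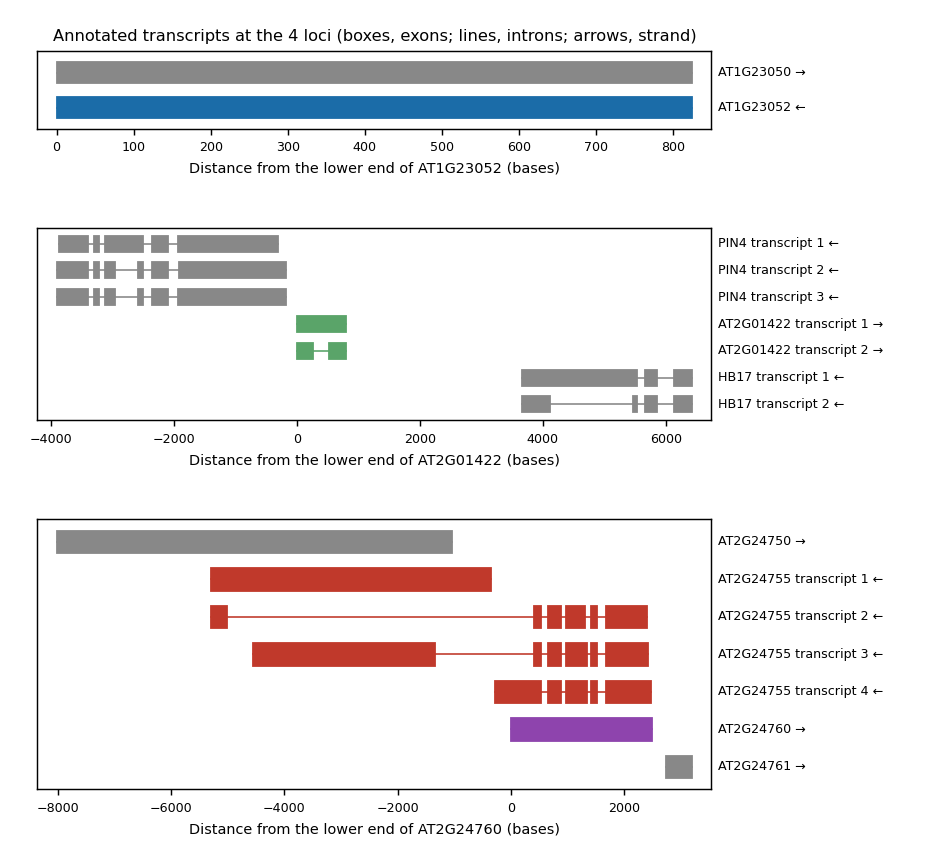
Annotated transcripts at the loci, drawn to scale as the distance in bases from the lower end of AT1G23052, AT2G01422 and AT2G24760 (boxes are exons, lines introns, arrows the strand, grey genes are not listed). AT1G23052 and AT1G23050 cover the same 825 bases, PIN4 and AT2G01422 point away from each other, and AT2G24755 transcript 1 ends short of AT2G24760 while the other AT2G24755 transcripts lie over it.

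The 2 loci of the overlapping pair went opposite ways in the table. AT2G24755 went from 6.83 in the wild type to 2.38 in hb13 in the authors' deposited table. AT2G24760 had 0.269 in the wild type and 2.73 in hb13 in the authors' deposited table. The long non-coding RNA was thus the higher of the 2 values in the wild type, and the values lay close together in hb13, although levels of different loci can be compared only if the values are per length, which is not stated. In the authors' deposited table AT2G24755 was 2.87-fold lower in hb13 (log2 ratio -1.52, q-value 0.00246). AT2G24760 was 10.2-fold higher in hb13 (log2 ratio 3.34, q-value 0.0267) in the authors' deposited table. Of the 4 loci, 3 had a q-value under 0.01, the exception being AT2G24760, beside 61.0% of all entries. With a value of 0 in hb13 counted as past it, all 4 passed an absolute log2 ratio of 1, beside 23.9%. AT1G23052 and AT2G01422 passed it by the 0 for which they were chosen. All 4 passed a mean value of 1, beside 99.7%. The loci were chosen from these values, so these counts are not read as a result.

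The fold change of AT2G24760 rests on the lowest wild-type value of all 708 entries. Next to it, just inside the table, were NCED9 (AT1G78390), an abscisic acid synthesis gene, at 0.472 and FRK1 (AT2G19190), a receptor-like kinase gene, at 0.548 in the wild type in the authors' deposited table. Its q-value was the 18th smallest of the 42 distinct values, shared by 7 entries, and 568 entries had a q-value as small or smaller. On log2(value + 1), a scale that damps low values, its difference was 1.56, while that of AT2G24755 was -1.21.

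The shared region is most of the pseudogene and the smaller part of the long non-coding RNA gene. Their spans overlap by 2468 bases. The exons of AT2G24755, all transcripts together, cover 2025 of the 2495 bases of AT2G24760, or 81.2%, and these are 27.9% of the 7249 exon bases of AT2G24755. This leaves 470 bases of AT2G24760 and 5224 exon bases of AT2G24755 on which the other has no exon. The 4 annotated AT2G24755 transcripts differ in this. Transcript 1, 4946 bases in 1 exon, shares none. Transcript 2 has 84.9% of its bases within AT2G24760, transcript 3 has 32.7% and transcript 4 has 87.9%. A value for the whole locus does not say which of the transcripts was present. These transcripts and overlaps are those of RefSeq (TAIR10.1). Whether the authors' values were computed over the same transcript models is not known.

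AT2G24755 has 8 distinct annotated introns, 6 of them inside AT2G24760. All 8 begin with GT and end with AG on the minus strand, so a read across any of them belongs to AT2G24755 by its sequence. A read that lies within the shared exon bases and crosses no intron can be placed only by its strand. Overlap with an opposite-strand gene was common for long non-coding RNA genes, 1929 of 3480 (55.4%), and uncommon for the pseudogene type, 99 of 3917 (2.53%).

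The annotation notes AT2G24755 as a natural antisense transcript that overlaps AT2G24750 and AT2G24760. AT2G24755 runs antisense to AT2G24750, annotated as a pseudogene of glutamate receptor 2.2, over 4259 exon bases or 58.8% of its own. In that part its highest-scoring alignments were to glutamate receptor-like channel genes of the same chromosome, in antisense orientation. GLR2.2 (AT2G24720) aligned over 2286 bases with 79.8% identity and GLR2.3 (AT2G24710) over 2631 bases with 77.0% identity. Shorter stretches of that part aligned elsewhere with higher identity, such as 201 bases at 88.1% on chromosome 1. AT2G24750, GLR2.2 and GLR2.3 were not listed, and neither was AT2G24761, the pseudogene that follows 253 bases after AT2G24760. None of the 10 genes flanking either member of the pair was listed, beside 1.83% of all annotated nuclear loci.

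Sequence related to AT2G24760 lay mostly at other annotated pseudogenes. Such sequence recurred at many places, and what it derives from was not tested. AT2G24760 had 78 alignments of at least 100 bases elsewhere in the genome, on all 5 nuclear chromosomes. Of these, 70 lay at annotated pseudogenes, including all 22 of 1000 bases or more. The closest over its length was the pseudogene AT5G28053 on chromosome 5, with 75.7% identity over 2473 bases. None of the 78 lay at a listed entry. The longest identical run was 45 bases, and none of its 2396 stretches of 100 bases, or of its 2446 stretches of 50 bases, occurred elsewhere. None of the 6655 stretches of 100 bases in AT2G24755 did either. Of the 120 alignments of AT2G24755, 1 lay at a listed entry, XTH15 (AT4G14130), a xyloglucan endotransglycosylase-related gene named here after its values were seen. It was 232 bases long with 85.8% identity, antisense to XTH15, which had 139 in the wild type and 189.6 in hb13 in the authors' deposited table. The longest reading frame on the AT2G24760 strand is 638 codons. Among 3903 loci of the pseudogene type with annotated exons, 383 (9.81%) had a reading frame as long, and the median was 202 codons. On the opposite strand the longest frame in an AT2G24755 transcript is 116 codons.

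The entries nearest to AT2G24760 in signed log2 fold change, with no pseudocount, were AT5G01210 at 2.42 and NCED9 at 2.34 in the authors' deposited table, the first of them 0.93 below it on the log2 scale. AT2G24755 had close neighbours, AT4G23670 at -1.51 and AT5G37990 at -1.56 in the authors' deposited table. AT4G23670 went from 52.9 to 18.6 and AT5G37990 from 6.67 to 2.27 in the authors' deposited table. Likeness was measured here over 2 values per entry and says no more than that.

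**Figure D3:**
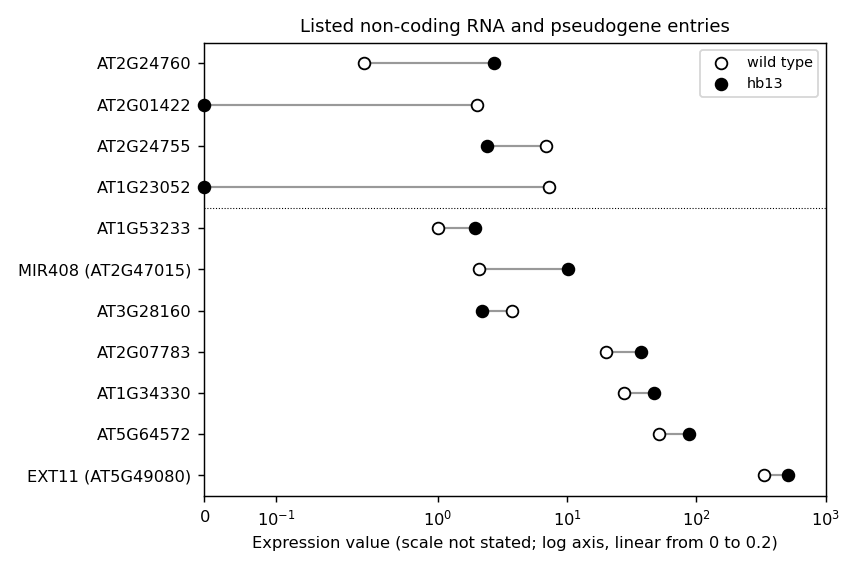
Expression values in the authors' deposited table for the 11 listed non-coding RNA and pseudogene entries (horizontal, log axis that is linear from 0 to 0.2), with open circles for wild type, filled circles for hb13 and no error bars because no value per library is given. Above the dotted line are the 4 loci described, of which AT2G24760 alone moves to the right, and below it 6 of the 7 others move to the right.

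The whole class was small in the table. Of 10455 annotated nuclear loci of the non-coding RNA and pseudogene types, 11 (0.105%) were listed, against 684 of 27444 protein-coding loci (2.49%) and 695 of all 37899 (1.83%). How many loci of each type were tested by the authors is not known, so these shares describe the table alone. The loci counted are those of RefSeq (TAIR10.1), and any that the authors' annotation lacked could not be listed. Of the 11 entries, 4 were lower in hb13 and 7 were higher, beside 44.4% lower and 55.6% higher over the 708 entries. The 4 loci described supplied 3 of the 4 lower entries, which follows from how they were chosen. Among the 9 entries with a fold change the median log2 ratio of hb13 over wild type was 0.79 in the authors' deposited table, against 0.45 over the 706 of the whole table.

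Of the 7 other entries, 6 were higher in hb13. The largest change was that of MIR408 (AT2G47015), the precursor of a microRNA of the copper-deficiency response, with 2.09 in the wild type, 10.2 in hb13 and thus a log2 ratio of 2.28 in the authors' deposited table. For the remaining higher entries the log2 ratio ranged from 0.62 to 0.96 in the authors' deposited table. These were the pseudogenes AT1G34330, AT2G07783 and EXT11 (AT5G49080), the last named as an extensin, a cell wall protein, and the long non-coding RNA genes AT5G64572 and AT1G53233. EXT11 had the highest values of the class, 332.5 in the wild type and 512.3 in hb13 in the authors' deposited table. The pseudogene AT3G28160 was the lower one, at 3.74 in the wild type and 2.19 in hb13 (log2 ratio -0.77) in the authors' deposited table. In the wild type the 4 loci described ran from 0.269 to 7.18 in the authors' deposited table, and of the 7 others 3 lay below 7.18 and 4 lay from 19.9 to 332.5, so the ranges overlap.

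Homeodomain-leucine zipper proteins of class I are known to bind the pseudopalindrome CAATNATTG. A single window per gene was therefore searched for it and for its core AATNATT. The window ran from 250 bases before to 50 after the outermost annotated start of the gene. Starts further inside a gene, such as that of AT2G24755 transcript 1, had no window of their own. Both motifs read the same on either strand, and the core lies within the longer motif. The longer motif was in none of the 4 windows, and in 398 of 37897 windows of annotated nuclear genes (1.05%). The core was found at AT1G23052 in 2 places, whose first bases are at -189 and -67 from the start, and at AT2G24755 in 1, at -247. It was in 11785 of the 37897 windows (31.1%). The windows of AT2G01422 and AT2G24760 held no match, which says only that these letters are not in them. The stretch before AT1G23052, chr1:8169268-8169517 on the minus strand, is shown with both matches in capitals.
AT1G23052 upstream: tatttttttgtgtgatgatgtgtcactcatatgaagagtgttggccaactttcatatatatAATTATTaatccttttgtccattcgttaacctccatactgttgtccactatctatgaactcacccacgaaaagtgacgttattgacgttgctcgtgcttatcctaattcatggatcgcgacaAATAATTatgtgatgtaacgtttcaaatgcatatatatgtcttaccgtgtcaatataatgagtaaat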

How the data were processed

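Single-end reads of 100 bases came from 3 wild-type and 3 hb13 libraries, placed in the 2 genotypes by their titles. Neither reads nor counts nor values for single libraries were used here, so depth and precision are unknown. The expression values deposited by the authors are a normalized signal, 1 per genotype, whose scale is not stated. The log2 fold change and the q-value (a p-value adjusted over tests) are as deposited by the authors. Per the submitters' processing notes, TopHat2 2.0.13, Cufflinks 2.1.1, Cuffdiff and TAIR10 were used, with no role stated. The annotation, strand setting and adjustment are not given in the sources used here.

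The members and lists were chosen with earlier results of these data known. Named genes were the 4 loci, listed genes that overlap or adjoin them, all other listed non-coding RNA and pseudogene entries, and the 2 entries nearest to each locus in log2 fold change or, for those at 0, in wild-type value. Genes named outside this rule, in flanking positions or lists of related or low values, were chosen after their values were seen. Types, spans and sequences came from RefSeq (TAIR10.1), which matched 695 of 708 entries by locus tag. Exon stretches of 100 or 50 bases were searched exactly on both strands, a step tested on simulated data, and related sequences with BLAST 2.17.0 (e-value limit 1e-05, at least 100 bases). Python 3.11.15, pandas 2.3.3, NumPy 2.4.6 and matplotlib 3.10.9 were used. The planned fits per library could not be made. Alternatives were thresholds on the q-value (0.01), the size of the log2 ratio (1) and the mean value (1), pseudocounts of 0.1 and 1, centring, and pseudogenes left out.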

Additional observations from a re-analysis of the deposited data

How the results depend on the processing

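No paired analysis was possible because the deposited columns combine the libraries of a genotype, and leaving out single replicates was not possible either. The log2 fold change of AT2G24760, 3.34 in the authors' deposited table, was 2.94 with a pseudocount of 0.1, 1.56 with a pseudocount of 1 and 2.89 when centred on the median of all listed entries, 0.45. That of AT2G24755, -1.52, became -1.48, -1.21 and -1.97 in the same order. A pseudocount added to both values cannot reverse a direction, and the centring value of 0.45 is smaller than either change in size. These settings therefore show how far the size moved and do not test the direction. Of the 4 loci, 3 passed the stricter q-value of 0.01 and 4 the limits on the ratio and on the mean value. AT1G23052 and AT2G01422 passed the limit on the ratio by the 0 for which they were chosen. Of the 11 non-coding RNA and pseudogene entries, 5 were left where the log2 ratio had to reach 1 in size, 2 higher and 3 lower. Without the pseudogenes 6 were left, 3 higher and 3 lower. All 11 had 7 higher and 4 lower, so the split by direction moved with the set. In both smaller sets the lower entries were AT1G23052, AT2G01422 and AT2G24755, which were chosen from these values. The stricter q-value left 8 and the limit on the mean value left 11. Exon stretches of the 4 loci found elsewhere numbered 0 at 100 bases and 19 at 50 bases, all in AT2G01422. The depth is unknown, so the precision of the low values, such as 0.269 for AT2G24760 in the wild type and 0 for AT1G23052 and AT2G01422 in hb13, could not be given.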

Other observations

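Overlap on opposite strands was looked at across the table after the pair had been seen. Of the 11 non-coding RNA and pseudogene entries, 7 overlap a gene on the opposite strand in the annotation, and for 4 of these the partner was listed too. These 4 entries include both AT2G24755 and AT2G24760, which are partners of each other. The share of all listed entries with such an overlap is not given, so these counts are a description. Counted over entries of any type, the table held 4 listed pairs that overlap on opposite strands, and 2 of them went in opposite directions. One was AT2G24755 with AT2G24760. The other was MIR408, at a log2 fold change of 2.28, with AT2G47020 at -1.04 in the authors' deposited table, over 218 shared bases. AT2G47020 went from 7.75 in the wild type to 3.78 in hb13 in the authors' deposited table. The pairs that went the same way were AT5G64572 with XYL4 (AT5G64570), and UBC16 (AT1G75440) with CKX5 (AT1G75450). The lncRNA gene AT5G64572 and the xylosidase gene XYL4 were at 0.79 and 0.65 on the log2 scale in the authors' deposited table. UBC16, a ubiquitin-conjugating enzyme gene, and the cytokinin oxidase gene CKX5 were at 0.92 and 1.23 in the authors' deposited table. Both UBC16 and CKX5 are protein-coding, so this pair lies outside the 11 entries. With 4 pairs no direction can be read as typical, and whether reads were assigned by strand at these places was not tested.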
